A study of Mus musculus with 4 samples.

Results

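The genes described here encode the proteoglycans of the cell surface and matrix and the enzymes that build, modify and degrade their glycosaminoglycan chains, the main constituents of the endothelial glycocalyx. They were chosen by symbol from a list of 50 genes in 10 role groups. Of these genes, 41 were among the 12693 gene symbols of the expression table. No measured value entered the choice by symbol, but the list was drawn up with earlier results of these data known. *Gpc1*, *Dcn*, *Hpse*, *Has2*, *Cd44*, *Chsy3*, *Chpf*, *Chst14* and *Ust* were not analysed here, which left the hyaluronan group (*Has2* and *Cd44*) without a measured gene. The study asked how the forkhead transcription factor FOXQ1 acts in brain endothelial cells (ECs). RNA sequencing compared 2 wild-type with 2 *Foxq1* conditional knockout (cKO) samples, all C57BL/6 mouse brain at embryonic day 18. In the cKO embryos, floxed *Foxq1* (FOXQ1 fl/fl) was deleted by Cre recombinase under the Tie2 promoter, whereas per the study's methods wild-type littermates lacked Cre, so that Cre was present in the cKO samples only. Tie2-driven Cre is also known to act in blood-forming cells. By the same methods, cortex was digested to single cells and CD31-positive cells were sorted for RNA, while the sample labels give the tissue only as brain. How many embryos went into a sample, and whether the 2 samples of a genotype came from separate embryos, was not stated, so p-values measure only the spread between these samples, which may be technical.

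The glycocalyx is a sugar-rich coat on the luminal face of blood vessels. Its membrane-bound proteoglycans, the syndecans and glypicans, carry heparan sulfate chains, and matrix proteoglycans such as versican and biglycan carry chondroitin or dermatan sulfate. Each chain grows from a linkage sugar sequence on a serine of the core protein, is polymerised in the Golgi, and is then sulfated and epimerised in patterns that set which growth factors, enzymes and plasma proteins it binds. In brain vessels this coat contributes to the barrier at the luminal surface.

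Upstream sequences are shown for the chondroitin-initiating enzyme gene *Csgalnact2* and the sulfotransferase gene *Chst2*, which were higher in the cKO samples at an unadjusted p under 0.05. They are the 250 bases before the RefSeq start site in assembly GRCm38.p6, at chr6:118139141-118139390 (minus strand) and chr9:95407271-95407520 (minus strand), written 5′ to 3′ with GC boxes (GGGCGG on either strand) in capitals.
Csgalnact2: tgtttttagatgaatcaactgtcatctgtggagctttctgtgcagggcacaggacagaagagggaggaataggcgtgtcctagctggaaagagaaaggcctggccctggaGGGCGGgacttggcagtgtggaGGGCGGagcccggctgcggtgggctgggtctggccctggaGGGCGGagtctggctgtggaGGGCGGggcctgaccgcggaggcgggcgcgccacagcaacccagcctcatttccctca
Chst2: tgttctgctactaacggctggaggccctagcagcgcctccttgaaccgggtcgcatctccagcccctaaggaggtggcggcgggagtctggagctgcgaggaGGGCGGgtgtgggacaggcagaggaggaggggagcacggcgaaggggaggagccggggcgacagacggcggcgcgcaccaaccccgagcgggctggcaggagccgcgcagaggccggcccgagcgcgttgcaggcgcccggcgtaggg
The *Csgalnact2* sequence held 4 GC boxes and the *Chst2* sequence held 1. A second RefSeq start site of *Csgalnact2*, at position 118138830, had no GC box in its 250 upstream bases. RefSeq promoters of 300 bases (250 before and 50 after the start site) were matched for 33 of the glycocalyx genes, some with more than 1 promoter, 39 in all. A GC box lay in 26 of these 39 promoters (66.7%), against 35.7% of all 32851 promoters. The forkhead core TGTTTA, searched on both strands, lay in 2 of the 39 (5.13%), 1 promoter of *Sulf2* and 1 of *Extl2*, against 13.4% of all promoters. The GTTTC motif that the study reports for FOXQ1 sites near *Adck1* and *Hap1* was not searched. The median GC content was 66.3% in the glycocalyx promoters and 52.7% in all promoters. All promoters came from 27025 genes and were not limited to genes of the expression table, as the glycocalyx genes were. The effect of that choice on these shares was not tested. A match describes the letters of a window and is not a binding site.

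Depth was lower in both cKO libraries. Reads on listed genes numbered 21466436 and 17901203 in wild-type and 15827166 and 16963866 in cKO samples. Values are normalized read counts, that is reads divided by a size factor of 0.919 to 1.19 per sample. Their total over all listed genes was also lower in both cKO samples (1.723e+07 and 1.726e+07, against 1.809e+07 and 1.785e+07 in wild-type). *Foxq1*, the deleted gene, had 353 and 297 in the wild-type against 5.44 and 32.6 in the cKO libraries, so that the cKO mean was 5.84% of the wild-type mean. The 10 endothelial marker genes were all present, with a summed level of 281483 and 258535 in wild-type and 232869 and 252918 in cKO samples, lower in both cKO samples. Of these genes, *Flt1* alone was lower at an unadjusted p under 0.05, and the sum without it was also lower in both cKO samples. *Pecam1*, *Flt1*, *Cldn5*, *Erg*, *Tie1* and *Emcn* were lower in both cKO samples, *Cdh5* was higher in both, and *Kdr*, *Tek* and *Esam* overlapped. Markers of other cells were present too. The summed level of 5 mural cell markers was 125540 to 136251 over the 4 samples, with no separation of the genotypes, and the neuron and erythroid sums and *Olig1*, the 1 oligodendrocyte lineage marker measured, overlapped between them as well. The sums of 5 fibroblast, 6 radial glia and astrocyte, and 6 microglia markers were, like the endothelial sum, lower in both cKO samples: 24923 and 27530 against 39728 and 41152 for fibroblast markers, 15771 and 16072 against 18985 and 19365 for glial markers, and 5374 and 6540 against 7692 and 9190 for microglial markers. In each of these 3 lists 1 gene passed the unadjusted test (*Fn1*, *Gfap* and *Csf1r*, all lower). Without *Fn1*, which held most of the fibroblast sum, the other 4 fibroblast markers summed to 8790.3 and 9941 in wild-type and 9434 and 5736 in cKO samples, which overlapped. Without *Csf1r* the microglial sums overlapped too (4327 and 6611 against 3642 and 4953), whereas without *Gfap* the glial sums did not (15912 and 16945 against 14690.3 and 14744). Of the glial markers, *Gfap*, *Slc1a3* and *Aldoc* were lower in both cKO samples, *Aqp4* was higher in both, and *Fabp7* and *Sox2* overlapped. *Acta2*, *Myh11*, *Tagln*, *Lum*, *Olig2* and *Sox10* were not analysed here. The part of these shifts in the results was not tested, and in such bulk samples fewer cells of a type and less RNA per cell cannot be told apart.

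Across the glycocalyx genes as a whole, no difference between the genotypes survived correction for all genes, and the values of the 2 genotypes overlapped for most genes. All 41 genes passed the filter on low values and were tested with limma among 12472 genes. None reached an adjusted p (Benjamini-Hochberg) under 0.05, as for the whole table (0% of genes), where the lowest adjusted p was 0.857. At an unadjusted p under 0.05, *Csgalnact2* and *Chst2* were higher in cKO (4.88% of the 41 genes, against 2.17% of all genes) and *Extl3* was lower (2.44%, against 3.05% of all genes). With 3 such genes in all, these shares are no result about the list as a whole. Both cKO samples lay above both wild-type samples for 11 genes (26.8%, against 18% of all genes) and below them for 5 (12.2%, against 18%). For the other 25 genes the groups overlapped. The median log2 fold change, always given as cKO minus wild-type, was 0.16, against 0.0086 for all genes tested, but it was -0.12 without wild-type 1 and -0.065 without Foxq1 cKO 1. Differences between samples of one genotype were wide: the 2 wild-type samples stood more than 2-fold apart for 17 of the 41 genes (41.5%, against 28.2% of all genes), and the 2 cKO samples for 11 (26.8%, against 20.2%). For any 1 gene, the lowest p that an exact permutation test of 2 against 2 samples can reach is 0.333.

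**Figure D1:**
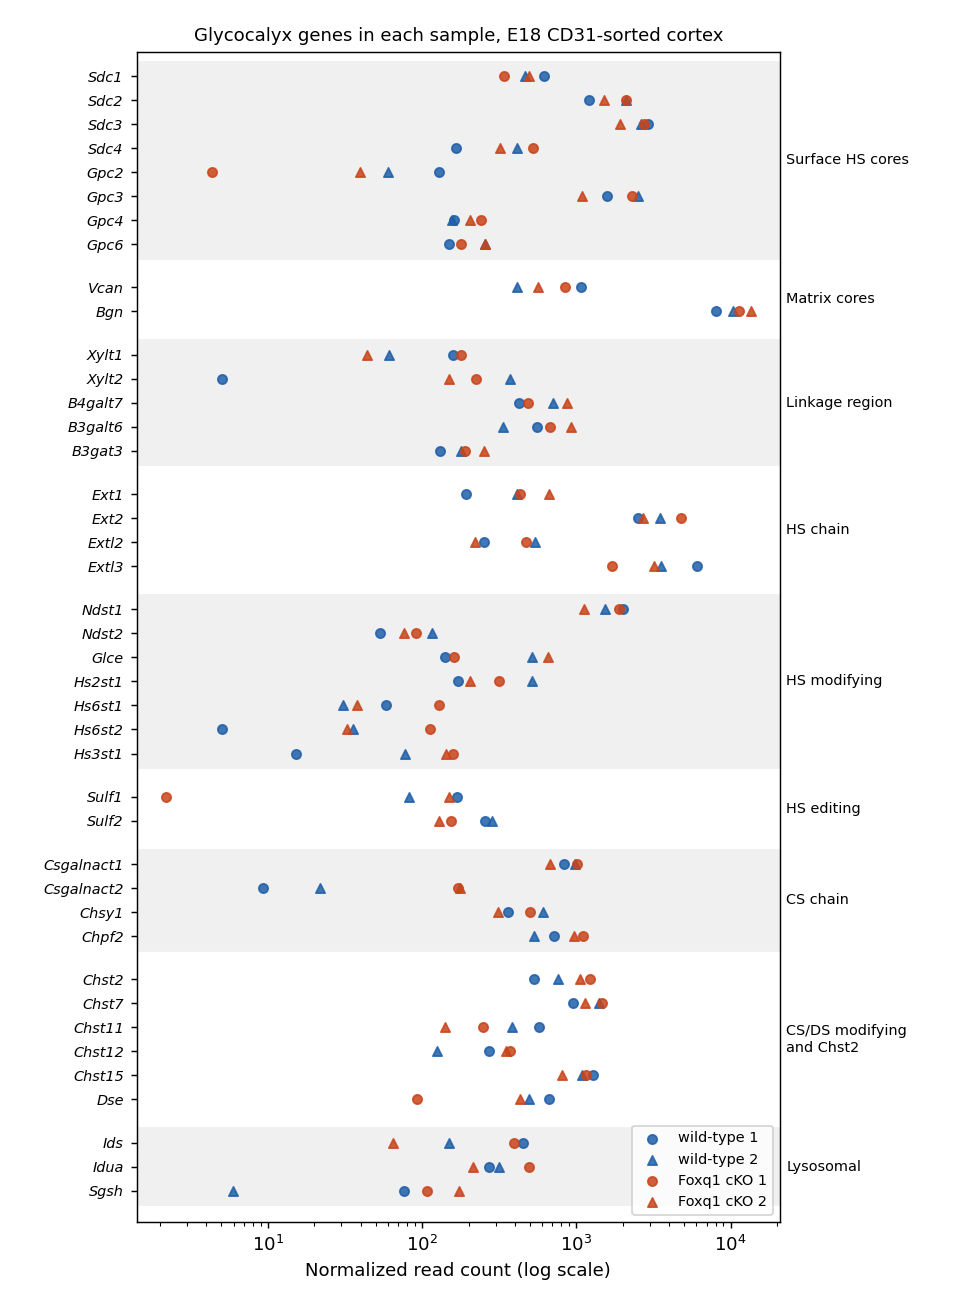
Normalized read count of each of the 41 glycocalyx genes in the 4 samples (log axis), with 1 point per sample and genes grouped by role (HS, heparan sulfate; CS, chondroitin sulfate; DS, dermatan sulfate). *Csgalnact2* shows the widest gap between the genotypes, with wild-type at 9.27 and 21.9 but Foxq1 cKO at 171 and 177, while *Sulf1*, *Gpc2*, *Xylt2*, *Hs6st2* and *Sgsh* each have 1 sample between 2.18 and 5.98.

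**Figure D2:**
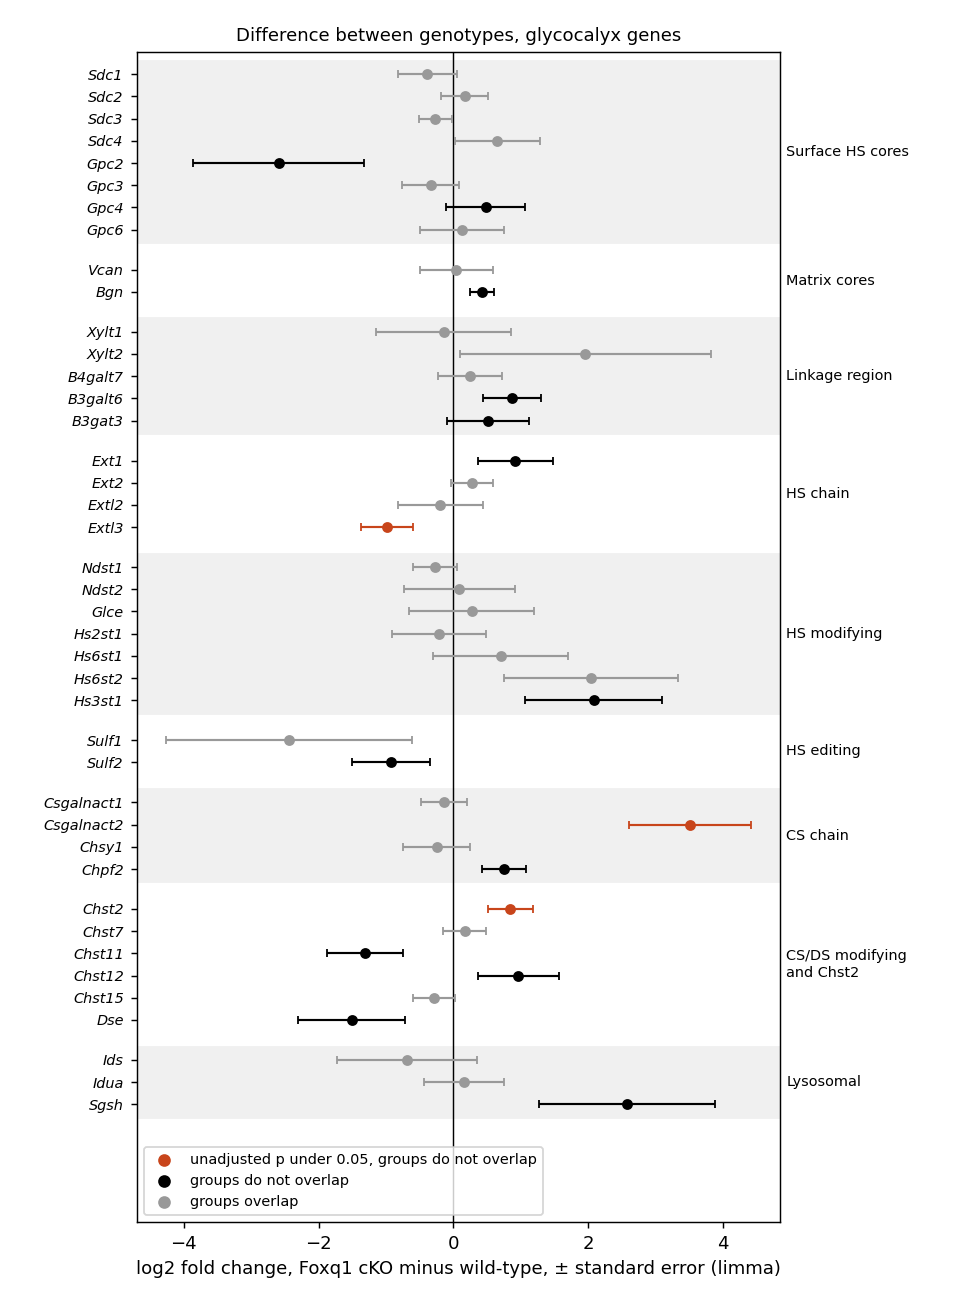
Log2 fold change (Foxq1 cKO minus wild-type) of each gene with its standard error from limma, on the log2(normalized count + 1) scale; HS, CS and DS stand for heparan, chondroitin and dermatan sulfate. The 3 coloured points are *Csgalnact2*, *Chst2* and *Extl3*, black points are the other genes whose groups did not overlap, and grey points are the 25 genes whose groups overlapped.

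The proteoglycan core proteins of the cell surface overlapped between the genotypes in their summed level, and none of the 8 measured genes passed the test. Their summed normalized count was 6926 and 8591 in wild-type and 8438 and 5841 in cKO samples, and their median log2 fold change was -0.07. *Sdc3*, a transmembrane syndecan with the highest mean count of the group, had normalized counts of 2920 and 2612 in wild-type and 2742 and 1910.5 in cKO samples. These ranges overlapped (log2 fold change -0.27, SE 0.245, unadjusted p = 0.312). *Gpc2*, a glypican anchored in the membrane by a lipid and best known from developing neurons, had 129 and 59.8 in wild-type and 4.35 and 39.7 in cKO samples. Both cKO values lay below both wild-type values, but the lower of them rested on 4 reads and the cKO samples stood 9.11-fold apart (log2 fold change -2.59, SE 1.27, unadjusted p = 0.0859). Of the exon bases of *Gpc2*, 55.6% are shared with *Gm43720* on the same strand, so reads of the 2 genes may not be separable. *Gpc4* did not overlap either, at 161 and 156 against 239.5 and 204, yet its difference was smaller than its standard error (0.48, SE 0.586). *Sdc1*, *Sdc2*, *Sdc4*, *Gpc3* and *Gpc6* overlapped, with log2 fold changes from -0.38 to 0.65.

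Per kilobase of exon, the matrix core gene *Bgn* was the most abundant gene of the list, with 1775 normalized counts per kilobase against a median of 77.05 over the 41 genes and 104.4 over all genes. *Gpc3* followed with 697, *Extl3* with 598 and *Chst7* with 561, while *Hs6st2* was the lowest with 5.94. *Bgn* encodes biglycan, a small leucine-rich proteoglycan of vessel walls. Its wild-type samples had normalized counts of 8100.1 and 10414, against 11271 and 13521 in cKO. The genotypes did not overlap, and the difference was close to the threshold without passing it (log2 fold change 0.43, SE 0.177, unadjusted p = 0.0519). It passed in 3 of 8 alternative analyses of the 4 samples, including that with the replicate number as a block (limma unadjusted p = 0.0184). Where limma's variance prior was not allowed to follow the expression level, its unadjusted p was 0.251. With a sample left out, its log2 fold change ranged from 0.25 to 0.61. Mural cells and fibroblasts also make biglycan. The summed mural markers overlapped between the genotypes, as did the fibroblast markers other than *Fn1*, and their part in the *Bgn* value was not tested. *Vcan*, the large hyaluronan-binding proteoglycan versican, overlapped between genotypes (0.05, SE 0.537), with the wild-type samples at 1072 and 414.

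None of the 5 enzymes of the linkage region passed the test, and 4 of 5 had a log2 fold change above 0 (median 0.51). Of all 12472 genes tested, 6323 had one above 0. *B3galt6*, which adds the second galactose of the linkage, had the highest mean count of the 5. It was measured at 557 and 336 in wild-type and at 671 and 929.8 in cKO samples, without overlap (0.87, SE 0.43, unadjusted p = 0.0897). *B3gat3*, which completes the linkage with glucuronic acid, had 131 and 179 against 190.5 and 253, again without overlap but with little space between the groups (0.51, SE 0.612, unadjusted p = 0.433). *Xylt1* and *Xylt2* encode the xylosyltransferases that start the chains built on this linkage. *Xylt2* was at 5.06 in wild-type 1, from 6 reads, and at 371 in wild-type 2, with the cKO samples between them at 223 and 151 and a log2 fold change of 1.96 that was close to its standard error (SE 1.86). It overlapped, and its group means were nearly equal, at 188 in wild-type and 187 in cKO. *Xylt1* and *B4galt7* also overlapped.

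Among the enzymes that polymerise heparan sulfate, *Extl3* was lower in cKO and *Ext1* was higher without passing the test. *Extl3* adds the N-acetylglucosamine that commits the linkage to heparan sulfate, and its gene lies on the minus strand of chr14:65052060-65149855 in GRCm38. It had the highest mean count of the 4 enzymes, with 6083 and 3529 in wild-type and 1702 and 3193 in cKO samples. The cKO mean was 50.9% of the wild-type mean, but wild-type 2 and Foxq1 cKO 2 lay close together, and the groups were separated mainly by wild-type 1 and Foxq1 cKO 1. The log2 fold change was -0.99 (SE 0.385, limma unadjusted p = 0.0416, adjusted p = 0.857), and the unadjusted p was 0.175 without wild-type 1, 0.233 without Foxq1 cKO 1 and 0.130 without the variance trend (a prior that follows the expression level). *Ext1*, a subunit of the EXT1-EXT2 polymerase, had 194 and 409.75 in wild-type and 429 and 661 in cKO samples. The groups did not overlap, although wild-type 2 and Foxq1 cKO 1 were nearly equal (0.92, SE 0.556, unadjusted p = 0.150). Its partner *Ext2* overlapped, at 2518 and 3467 against 4742 and 2701 (0.28, SE 0.319), and *Extl2* overlapped as well (-0.19, SE 0.633). In sum the 4 genes had 9045 and 7950 normalized counts in wild-type and 7342 and 6777 in cKO samples. This sum includes *Extl3*, and 2 of the 4 genes, *Ext1* and *Ext2*, had log2 fold changes above 0.

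The 7 enzymes that modify heparan sulfate showed no difference that passed the test, and the wild-type samples stood more than 2-fold apart for 5 of them. *Ndst1*, which removes acetyl groups and adds N-sulfate and so begins chain modification, had the highest mean count, at 2007 and 1526 in wild-type and 1878 and 1122 in cKO samples. The ranges overlapped (-0.27, SE 0.329, unadjusted p = 0.444). *Hs3st1* makes the rare sulfated glucosamine of the antithrombin-binding site of heparan sulfate. It had 15.2 and 77.8 in wild-type and 158 and 143 in cKO samples, a separation without overlap that did not pass the test (2.09, SE 1.02, unadjusted p = 0.0852). *Hs6st2* had the lowest mean count of the list, with 5.06 and 35.9 against 112 and 32.6, and overlapped. *Ndst2*, *Glce*, *Hs2st1* and *Hs6st1* overlapped with log2 fold changes from -0.21 to 0.70.

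Both measured sulfatases that remove sulfate from heparan sulfate outside the cell had negative log2 fold changes, and neither passed the test. *Sulf2* was even within each genotype, at 257 and 282 in wild-type and 153.5 and 129 in cKO samples, without overlap. Its log2 fold change was -0.93 (SE 0.579, unadjusted p = 0.159), and its unadjusted p was 0.0348 where limma's variance prior was not allowed to follow the expression level. *Sulf1* had 168 and 82.7 in wild-type and 2.18 and 151 in cKO samples. The first of these cKO values rested on 2 reads and the other lay within the wild-type range (-2.44, SE 1.83).

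The largest difference of the list was in the chondroitin sulfate chain enzymes. *Csgalnact2* and *Csgalnact1* encode the N-acetylgalactosamine transferases that direct a linkage to chondroitin sulfate rather than heparan sulfate. *Csgalnact2* lies on the minus strand of chr6:118107452-118139140 in GRCm38. *Csgalnact2* had normalized counts of 9.27 and 21.9 in wild-type samples, from 11 and 22 reads, and 171 and 177 in cKO samples, from 157 and 174 reads. The cKO mean of 174 ± 4.31 (SD, n = 2) was 11.2-fold the wild-type mean of 15.6 ± 8.95 (SD, n = 2), and the groups were far apart. The log2 fold change was 3.51 (SE 0.901, 95% confidence interval 1.31 to 5.71, limma unadjusted p = 0.0078, adjusted p = 0.857). The unadjusted p stayed under 0.05 in all 8 alternative analyses of the 4 samples, but was 0.0548 without Foxq1 cKO 1 and 0.0561 without Foxq1 cKO 2. *Csgalnact1*, the highest of the group by mean count, had 833 and 987 in wild-type and 1010.3 and 675 in cKO samples. It overlapped, with a log2 fold change of -0.13 (SE 0.343, unadjusted p = 0.708). *Chpf2*, a partner in chondroitin polymerisation, had 712 and 531 against 1106 and 968, without overlap (0.75, SE 0.33, unadjusted p = 0.0631). Of its exon bases, 44.1% are shared with *Smarcd3* on the opposite strand. Whether reads were counted by strand was not stated, so reads of these genes may not be separable. *Chsy1*, a chondroitin synthase, overlapped (-0.25, SE 0.5).

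The sulfotransferases and the epimerase that act on chondroitin and dermatan sulfate were grouped with *Chst2*. These 6 genes had differences of both signs, and *Chst2* alone was under the unadjusted threshold. *Chst2* sulfates N-acetylglucosamine in keratan sulfate and in selectin ligands rather than in chondroitin sulfate. It had 532 and 759.7 in wild-type and 1220.4 and 1064 in cKO samples. Both cKO values lay above both wild-type values, with a 1.77-fold difference of the means (log2 fold change 0.84, SE 0.333, limma unadjusted p = 0.0445, adjusted p = 0.857). The limma unadjusted p was 0.145 without wild-type 1, 0.196 without Foxq1 cKO 1, 0.115 without Foxq1 cKO 2 and 0.0701 without the variance trend, so that the call was lost in each case.

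*Chst11* and *Chst12* encode sulfotransferases for the same position of chondroitin sulfate, and their log2 fold changes had opposite signs. *Chst11* had 569 and 384 in wild-type and 249 and 140.4 in cKO samples, lower without overlap (-1.32, SE 0.562, unadjusted p = 0.0571, and 0.0469 without the variance trend). *Chst12* had 269.6 and 126 in wild-type and 370.1 and 349 in cKO samples, higher without overlap (0.96, SE 0.602, unadjusted p = 0.161). Neither passed the test, and the difference between the 2 genes was not tested. *Dse*, the epimerase that converts chondroitin to dermatan sulfate, had 666 and 490.5 in wild-type and 92.5 and 430.3 in cKO samples. Foxq1 cKO 1 was far below the other 3 samples and Foxq1 cKO 2 was close to wild-type 2 (-1.51, SE 0.789, unadjusted p = 0.103). *Chst7*, with the highest mean count of the group, had 948 and 1401 against 1459.9 and 1145 and overlapped (0.17, SE 0.314, unadjusted p = 0.616), as did *Chst15* (-0.29, SE 0.312). The summed level of the 6 genes was 4259 and 4246 in wild-type and 4547 and 3935 in cKO samples, so that sums overlapped where single genes did not.

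The 3 lysosomal hydrolases, whose inherited loss causes mucopolysaccharidoses, varied widely and none passed the test. *Idua*, an iduronidase and the group's highest by mean count, had 269.6 and 316 in wild-type and 495 and 215 in cKO samples, which overlapped (0.16, SE 0.59, unadjusted p = 0.796). *Sgsh*, which removes N-sulfate from heparan sulfate, had 75.8 and 5.98 in wild-type and 108 and 174 in cKO samples. The groups did not overlap, but the wild-type 2 value rested on 6 reads (2.57, SE 1.30, unadjusted p = 0.0951). Of the exon bases of *Sgsh*, 21.6% are shared with *Card14* on the opposite strand, so reads of these genes may not be separable. *Ids*, an iduronate sulfatase, overlapped (-0.69, SE 1.04).

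**Figure D3:**
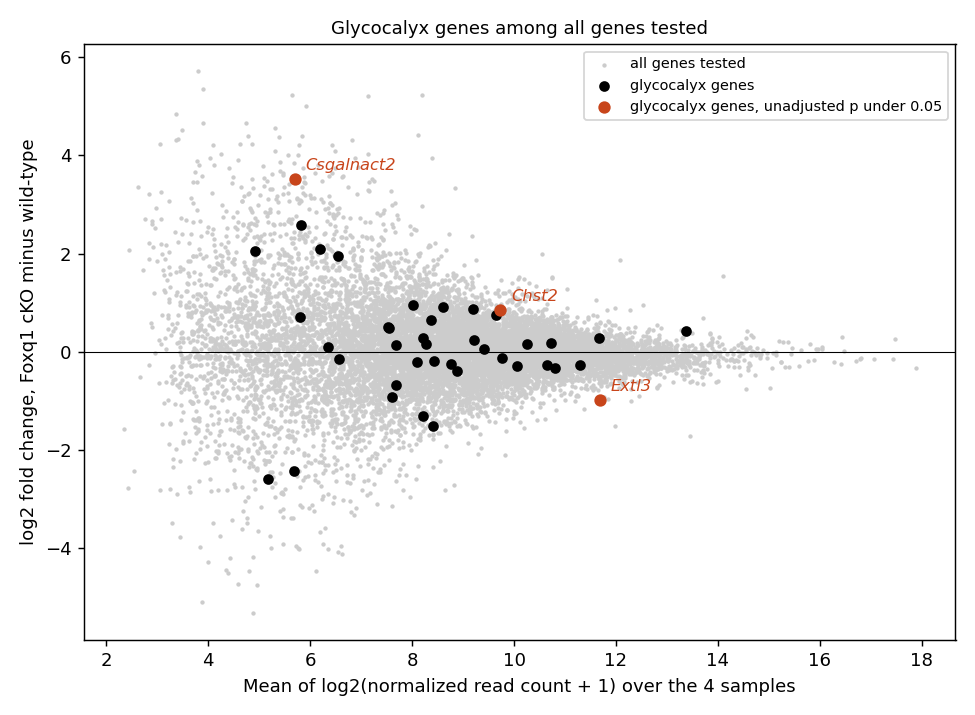
Log2 fold change (Foxq1 cKO minus wild-type) against mean normalized read count (log axis) for all 12472 genes tested, with the 41 glycocalyx genes drawn over them. The glycocalyx genes lie within the spread of all genes, with *Csgalnact2* at 3.51 the highest of them and *Gpc2* at -2.59 the lowest.

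Other genes of proteoglycan biology were read from a list of 72 symbols, of which 47 were measured and tested. None passed after adjustment. At an unadjusted p under 0.05, 2 were higher (4.26%, against 2.17% of all genes) and 2 lower (4.26%, against 3.05%) in cKO. The groups did not overlap for 6 higher genes (12.8%, against 18% of all genes) and 13 lower genes (27.7%, against 18%). *Col18a1*, a basement membrane collagen that carries heparan sulfate, had 9173 and 11488 in wild-type and 25208 and 35584 in cKO samples (1.54, SE 0.201, unadjusted p = 2.42e-04). *Col15a1*, a related collagen that carries chondroitin sulfate, had 39.6 and 12 against 732 and 989.8 (5.21, SE 0.81, unadjusted p = 6.33e-04). Both collagens were known to differ from earlier results when the list was drawn up, so they are not independent evidence. *Dsel*, which encodes the epimerase most like *Dse*, had 591 and 763 in wild-type and 265 and 219.7 in cKO samples (-1.47, SE 0.439, unadjusted p = 0.0150). It was even within each genotype, unlike *Dse* itself. *Ncan*, neurocan of brain matrix, had 15459 and 15852 against 10364 and 13143 (-0.42, SE 0.151, unadjusted p = 0.0307), beside a sum of glial markers that was also lower in both cKO samples. Within that sum *Aqp4* was higher in both cKO samples, and *Fabp7* and *Sox2* overlapped. The part of glial cells in the *Ncan* value was not tested.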

How the data were processed

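RNA sequencing of 2 wild-type and 2 *Foxq1* cKO samples was analysed. The authors deposited 1 table of a normalized signal per gene, in which each sample's reads were scaled by its own size factor: 100% of values were whole multiples of 1 step per sample within 0.01. The submitters' processing notes name Bowtie2 2.2.3, TopHat2 2.0.12, HTSeq 0.6.0 and mm9, with no role stated. The study describes the sequencing as Smart-seq2-based, and the strand setting of the counting was not given in the sources used here. The table's 1207361 lines, with genes repeated, were collapsed to 12693 gene symbols, 8 of them with 2 identifiers. No listed gene had fewer than 21 reads in total or fewer than 1 in a sample, so a complete loss could not be measured.

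Values plus a pseudocount of 1 were taken to log2, which understates changes of low genes, and 12472 genes with a mean of at least 10 were tested together, two-sided, with limma 3.58.1 (lmFit, eBayes with a trend) in R 4.3.3, with Benjamini-Hochberg adjustment. The procedure was tested on simulated data with changes larger than most of those described here, and was not tested on smaller ones. Reads named in the text are values divided by the sample's step. Count models planned as alternatives were not run, because a check of units refused steps close to 1, and that of wild-type 2 was 0.997. All values of wild-type 2 were still whole multiples of its step, so its reads are named in the text. Values were given for each gene with an unadjusted p under 0.05, each whose groups did not overlap with a log2 fold change of at least 0.5 in size, and the highest by mean in each role, and other genes of the list by shorter clauses. Genes, lists and rule were chosen with earlier results of these data known. Exon lengths and overlaps came from GENCODE M21 (GRCm38), which held 12685 of 12701 identifiers, and promoters from RefSeq GRCm38.p6. Groups came from the sample labels. No batch is given in the labels.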

Additional observations from a re-analysis of the deposited data

How the results depend on the processing

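Alternatives were pseudocounts of 0.5 and 5, quantile normalization, TMM scaling, a minimum mean of 50 and no filter, no variance trend, the replicate number as a block, and leaving out each sample, where a lone sample is assumed to vary like the other group. Count models were not run. None of the 41 glycocalyx genes passed after adjustment under any of them. The number of glycocalyx genes higher at an unadjusted p under 0.05, 2, was 1 without the variance trend, 3 with a minimum mean of 50 and 3 with quantile normalization, and 0 to 7 with a sample left out. The number lower, 1, was 2 with quantile normalization and 2 without the trend, and 0 to 4 with a sample left out. With the replicate block 2 genes were higher and 1 lower, with *Bgn* (unadjusted p = 0.0184) in place of *Chst2* (0.0575); the shared numbers were not taken to pair samples, since samples numbered alike did not deviate together (correlation 0.0325 over 12472 genes). Genes without overlap numbered 13 to 22 higher and 7 to 15 lower with a sample left out, where 1 sample a group makes overlap rarer. Shares over all genes in these settings are not given, so the counts here are no result about the list. The median log2 fold change of 0.16 ranged from -0.12 to 0.45, turning negative without wild-type 1 (-0.12) and without Foxq1 cKO 1 (-0.065). Among the other proteoglycan genes, 4 calls became 3 with quantile normalization and 5 to 7 with a sample left out. With a sample left out, the log2 fold change crossed 0 for 4 of the 20 genes whose values are given in full: *Ndst1* (-0.64 to 0.10), *Csgalnact1* (-0.42 to 0.16), *Chst7* (-0.12 to 0.45) and *Idua* (-0.44 to 0.76). The cause was not tested. Standard errors were wide, with a median of 0.586 for these genes and 0.496 for all. They rest partly on limma's variance prior over all genes, so that *Sulf2*, though even within each genotype, had 0.579.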
